A study of Homo sapiens with 2 samples.

Results

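The retinoic acid receptors and a set of their response genes were described in R-HL60, a cytarabine-resistant line, and in HL60, the parental human leukaemia line. The set holds the receptor genes RARA, RARB, RARG and RXRA, the retinoic acid carrier gene CRABP2, the retinoid enzyme genes CYP26A1 and DHRS3, and the response genes CD38, ASB2 and TGM2. Its members were every row that carries one of these 10 names, which gave 15 probes of the 58201 on the array and 10 of the 43270 genes and transcripts. The 10 names were chosen with earlier results of these arrays known, in which CD38 and ASB2 stood out, so their differences are a description and carry no test. HL60 cells come from an acute myeloid leukaemia and resemble promyelocytes, the granule-making precursors of neutrophils. R-HL60 was derived from it by continuous exposure to rising concentrations of cytarabine, a deoxycytidine analogue that stops DNA synthesis. Both lines were grown in the same serum-supplemented medium; neither line is labelled as treated with retinoic acid, and the labels do not say whether cytarabine was present when R-HL60 was harvested. Each line was measured on 1 one-colour Agilent array, so no difference has an error between cultures, and array and line cannot be told apart.

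Retinoic acid, the active form of vitamin A, acts through receptors of the RAR family, which sit on DNA as pairs with a receptor of the RXR family. Without the ligand the pair holds corepressors at its target genes, and with it the pair binds coactivators and transcription rises. HL60 cells are a standard model of this response, since retinoic acid drives them towards granulocyte-like cells. CD38, a surface enzyme that hydrolyses NAD, is among the early genes induced in that setting, and its first intron is known to carry a retinoic acid response element. ASB2, the substrate-binding subunit of a ubiquitin ligase that targets filamins, and TGM2, a protein cross-linking transglutaminase, are also induced by retinoic acid in myeloid leukaemia cells. RARB, CYP26A1 and DHRS3 are classical targets of the receptors in many cell types.

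The receptor pair recognises a short half-site, most often as a direct repeat with a spacer. Promoter windows from RefSeq (build GRCh38.p14), each running from 250 bases before to 50 bases after an annotated start, were searched on both strands for the 6-base half-site in the form AGGTCA, the form AGTTCA, the form GGTTCA or the form GGGTCA, and for repeats of 2 of them in the same direction with 1, 2 or 5 bases between them, called DR1, DR2 and DR5. Every repeat also contains 2 half-site matches. There were 19 windows for 9 of the 10 members; TGM2 was not among the entries of the table. A single half-site was common, present in 38.6% of all 35116 windows and in 11 of the 19 windows of the members. A DR5 was rare, present in 31 windows or 0.0883% of all. Of the member windows 2 held one, 1 at RARB and 1 at CYP26A1. DR1 and DR2 stood in 0.131% and 0.0399% of all windows and in 0 of the 19 member windows. A match is a run of letters and not a measured binding site.

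The stretches before the start of RARB and CYP26A1 are shown because they carry the DR5, whose half-sites are in capitals, and those of CD38 and ASB2 because these members differed most between the lines; in them capitals mark any half-site. All are written 5′ to 3′ in the direction of the gene and end at the base before the annotated start. They are chr3:25428113-25428262 on the plus strand for RARB, chr10:93073743-93073892 on the plus strand for CYP26A1, chr4:15778128-15778327 on the plus strand for CD38 and chr14:93976571-93976770 on the minus strand for ASB2.
RARB: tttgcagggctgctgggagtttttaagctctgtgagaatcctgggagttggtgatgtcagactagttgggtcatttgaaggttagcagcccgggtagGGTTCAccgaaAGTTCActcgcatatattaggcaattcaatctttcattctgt
CYP26A1: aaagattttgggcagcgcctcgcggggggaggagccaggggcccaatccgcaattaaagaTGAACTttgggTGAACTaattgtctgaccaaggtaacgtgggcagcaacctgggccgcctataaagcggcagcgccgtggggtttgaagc
CD38: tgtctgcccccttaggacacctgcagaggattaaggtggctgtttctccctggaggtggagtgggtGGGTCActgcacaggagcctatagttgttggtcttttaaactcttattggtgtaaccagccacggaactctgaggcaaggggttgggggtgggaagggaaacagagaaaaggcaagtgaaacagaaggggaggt
ASB2: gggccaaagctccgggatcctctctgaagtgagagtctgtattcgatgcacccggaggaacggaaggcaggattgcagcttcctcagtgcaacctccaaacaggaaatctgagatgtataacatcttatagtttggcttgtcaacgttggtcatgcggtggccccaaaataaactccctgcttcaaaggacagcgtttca
The RARB repeat began 53 bases before the start and read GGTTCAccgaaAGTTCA in the direction of the gene. The CYP26A1 repeat began 90 bases before the start and lay on the opposite strand, where it read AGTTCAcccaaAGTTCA. CD38 had 1 half-site, 134 bases before the start, and the stretch of ASB2 shown had 0. The other ASB2 window held 1 half-site, placed after its start. RARG had 0 half-sites in its window.

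**Figure D1:**
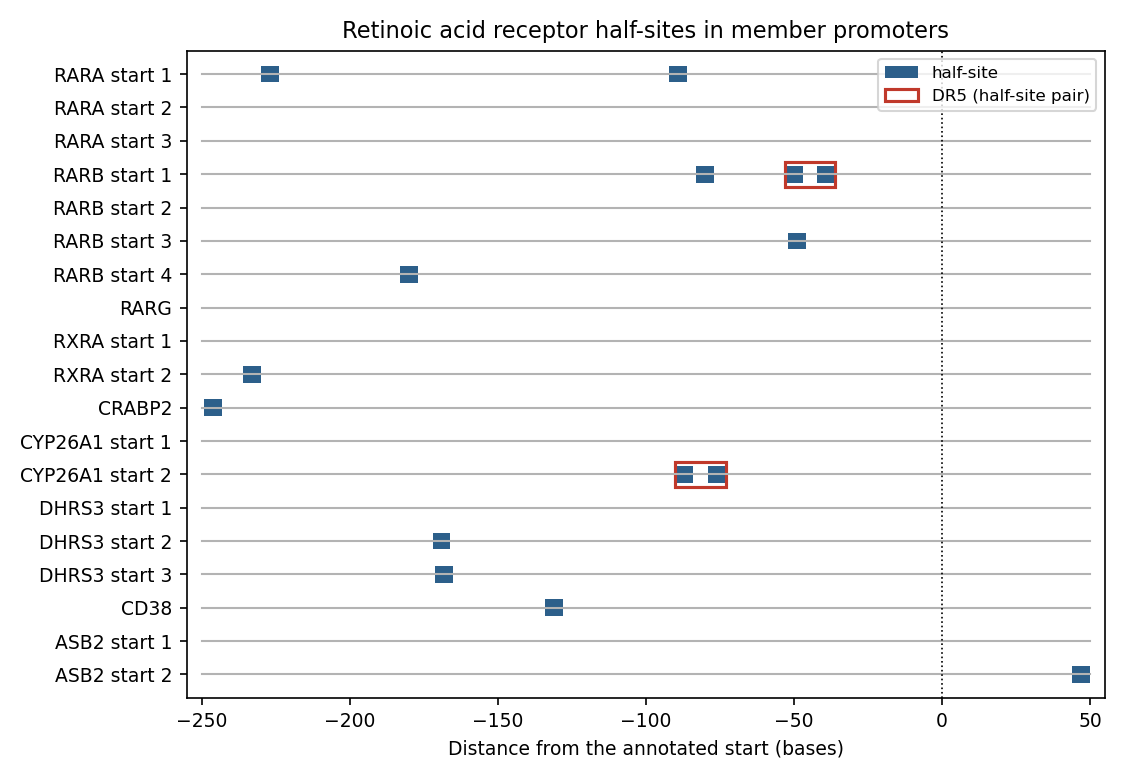
Half-sites (filled) and DR5 repeats (outlined) along the 19 promoter windows of 9 members; the x axis is the distance from the annotated start in bases, with 1 line per annotated start. Half-sites are spread over 11 windows, and the DR5 repeats, 1 each, are at RARB and CYP26A1, 53 and 90 bases before the start.

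Each raw signal was taken to log2 after division by the 75th percentile of its array, which was 294 in R-HL60 and 292 in HL60. As the files hold no detection flags, the median signal of each array, 32.8 in R-HL60 and 30.7 in HL60, was used as a floor. Where a gene had more than 1 probe, the probe of highest mean stood for it. Signals of different probes depend on the probe and are not set against each other here. A gene above the floor on 1 array has only a bound, and genes were counted when the difference reached 2-fold. Of all genes, 23531 passed the floor on at least 1 array. The 21838 that passed it on both had log2 differences with an SD of 0.29. Different probes of the same gene were the sole repeats, and their log2 differences had an SD of 0.28 in the dimmest of 5 brightness bins and 0.12 in the brightest; this SD leaves out the spread between cultures and arrays. All 10 promyelocytic myeloid markers examined were above the floor on both arrays, with MPO at 285746 in R-HL60 and 309491 in HL60. Differences were below 0 for 9 of the 10, where 56.3% of all genes were below 0, and the median of the 10 was -0.16. Their summed signal, mostly that of MPO and CTSG, was 763983 in R-HL60 and 856641 in HL60. ELANE was past 2-fold lower, at -2.20 on the log2 scale, beside 0.297% of all genes past 2-fold lower. PRTN3 was at -0.80 and CEBPA at -0.46. Most of these markers are in the brightest bin, where the median signal was 9231 in R-HL60 and 9654 in HL60. The count below 0 was not matched for brightness, and nothing is read from it. Of the markers of other cell types that had a probe, 8 of 8 lymphoid, 4 of 4 erythroid, 3 of 5 epithelial and 2 of 6 fibroblast genes were above the floor on at least 1 array, and none was past 2-fold. The lymphoid markers summed to a signal of 9703 in R-HL60 and 7021 in HL60. Most of that sum was CD3D, with 6201 in R-HL60 and 3923 in HL60. The epithelial markers summed to 1874 in R-HL60 and 1670 in HL60, and the fibroblast ones to 124 in R-HL60 and 108 in HL60. The part of these markers of other cell types in the results was not tested.

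Of the 10 members, 7 were above the floor on both arrays, CYP26A1 in HL60 only, and RARB and TGM2 on neither. CD38 and ASB2 were past 2-fold higher in R-HL60, 2 of 8 members above the floor, and 0 members were past 2-fold lower. Among all genes above the floor, the share past 2-fold higher was 0.786% and the share past 2-fold lower 0.297%. At 1.5-fold the members' counts were again 2 higher and 0 lower, beside 3.53% and 1.38% of all genes, and at 3-fold they were 1 higher and 0 lower, beside 0.191% and 0.123%; since the choice of members used this comparison, nothing is read from the count. The median log2 difference of the 8 members, with CYP26A1 at its bound, was 0.12, against -0.03 over all genes. The other 5 members measured on both arrays, RARA, RARG, RXRA, CRABP2 and DHRS3, all differed by less than 0.3 on the log2 scale.

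**Figure D2:**
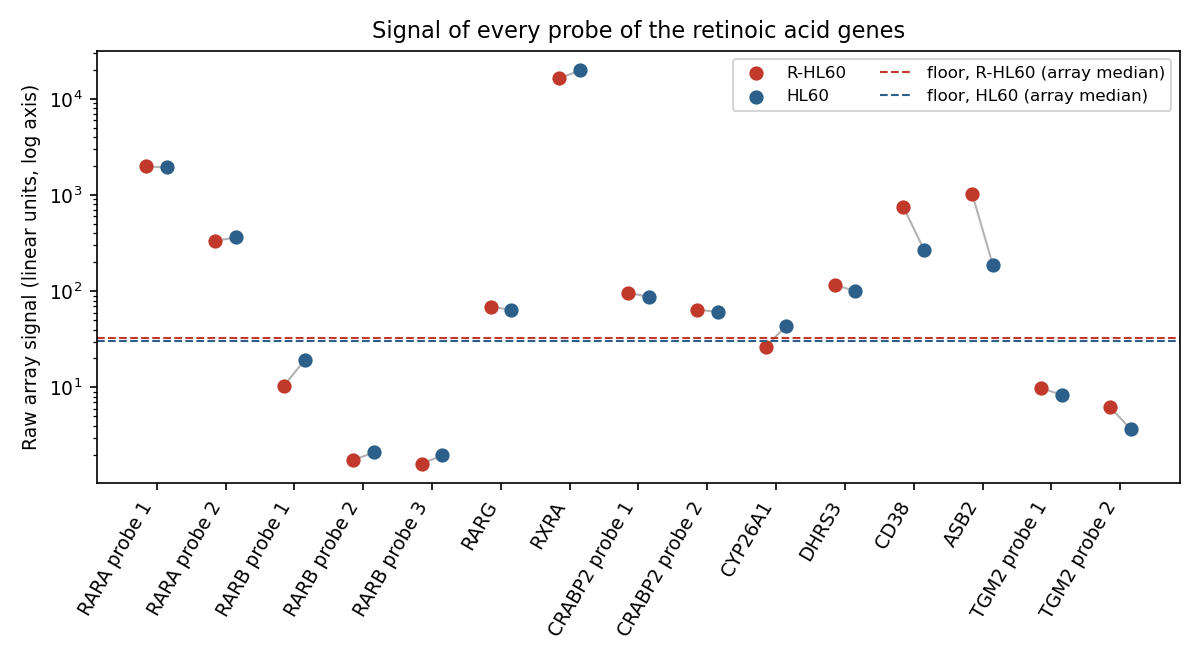
Raw signal of each of the 15 member probes on the R-HL60 array (red) and the HL60 array (blue), on a log axis; dashed lines are the floors, 32.8 for R-HL60 and 30.7 for HL60, and a grey line joins the signals of 1 probe. CD38 and ASB2 are clearly higher in R-HL60, the RARA, RARG, RXRA, CRABP2 and DHRS3 points lie close together, and the RARB and TGM2 probes lie under the floor on both arrays.

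Among the receptors, RARA, the main retinoic acid receptor of myeloid cells and the gene fused to PML in acute promyelocytic leukaemia, was measured by 2 probes. The brighter RARA probe had a signal of 1984 in R-HL60 and 1935 in HL60, a log2 difference of 0.03. The other RARA probe had 333 in R-HL60 and 363 in HL60, a log2 difference of -0.13. The probes differed in sign, both values were within the probe-to-probe SD of genes of like brightness, 0.14 and 0.17, and no direction can be given for RARA.

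RXRA, a receptor of the RXR family that pairs with the RARs and with several other nuclear receptors, had a signal of 16279 in R-HL60 and 19711 in HL60. Its log2 difference of -0.28 was the lowest of the members measured on both arrays and exceeded the probe-to-probe SD of 0.12 for that brightness, yet 8.98% of all genes measured on both arrays had a lower one. RARG, the receptor best known from skin and also expressed in blood stem cells, had 69.0 in R-HL60 and 64.1 in HL60, a log2 difference of 0.10 at a probe-to-probe SD of 0.28. Its signal was thus nearly equal on both arrays, a little above the floor.

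RARB, the receptor whose gene is itself switched on by retinoic acid and whose DR5 is shown above, was not above the floor with any of its 3 probes. The signals of its first probe were 10.5 in R-HL60 and 19.2 in HL60. The second RARB probe had 1.75 in R-HL60 and 2.11 in HL60, and the third had 1.61 in R-HL60 and 1.97 in HL60. All 3 were lower in R-HL60, but signals this far under the floor give no measured difference. In the authors' normalized table the third RARB probe turned round, at 1.80 in R-HL60 and 1.78 in HL60.

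CRABP2, the carrier that hands retinoic acid to the receptors in the nucleus, had 2 probes with nearly equal signals in both lines. The brighter CRABP2 probe had 96.6 in R-HL60 and 87.3 in HL60, a log2 difference of 0.14. The other CRABP2 probe had 64.1 in R-HL60 and 61.2 in HL60, a log2 difference of 0.06. Neither exceeded the SD between probes of like brightness, 0.23 for the brighter and 0.28 for the other.

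The enzyme genes gave a bound for CYP26A1 and a small difference for DHRS3. CYP26A1, the cytochrome P450 that breaks down retinoic acid, had a signal of 26.5 in R-HL60, under the floor, and 44.0 in HL60, above it. It was therefore at least 1.35-fold lower in R-HL60; the signals themselves differed by -0.74 on the log2 scale, and by -0.82 in the authors' normalized table. With 50 units added to each signal, which shrinks differences between dim signals, the bound was -0.19 on the log2 scale, and probes as dim as this one had a probe-to-probe SD of 0.28. DHRS3, which reduces retinaldehyde back to retinol and so limits the making of retinoic acid, had 116 in R-HL60 and 100.5 in HL60. Its log2 difference of 0.20 did not exceed the SD of 0.23 between probes of like brightness, and 15.8% of all genes measured on both arrays had a higher one. Thus, of the 3 members best known as direct targets in many cell types, RARB was below the floor on both arrays and DHRS3 was nearly equal. CYP26A1 had only a bound, under 2-fold lower in R-HL60, that depended on the floor.

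Of the response genes of myeloid cells, ASB2 had a signal of 1023 in R-HL60 and 187 in HL60. This was 5.45-fold higher (log2 difference 2.45, probe-to-probe SD 0.17), the 15th highest of the 21838 genes measured on both arrays. CD38 had a signal of 747 in R-HL60 and 269 in HL60. It was 2.76-fold higher (log2 difference 1.46, probe-to-probe SD 0.17), the 41st highest. Each of these genes had 1 probe on the array, so no further probe bears on either value. In the authors' normalized table ASB2 was at 1032 in R-HL60 and 187 in HL60, and CD38 at 750 in R-HL60 and 269.6 in HL60. The gap between the lines narrowed with 50 units added, to 4.51-fold for ASB2 and 2.49-fold for CD38.

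TGM2, the third response gene, was below the floor on both arrays with both its probes. The first TGM2 probe had 9.78 in R-HL60 and 8.42 in HL60, and the second had 6.25 in R-HL60 and 3.71 in HL60. Both were somewhat higher in R-HL60, at a level where no difference is measured. ASB2 and CD38 were hence the response genes past 2-fold, and TGM2 was not above the floor in either line.

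**Figure D3:**
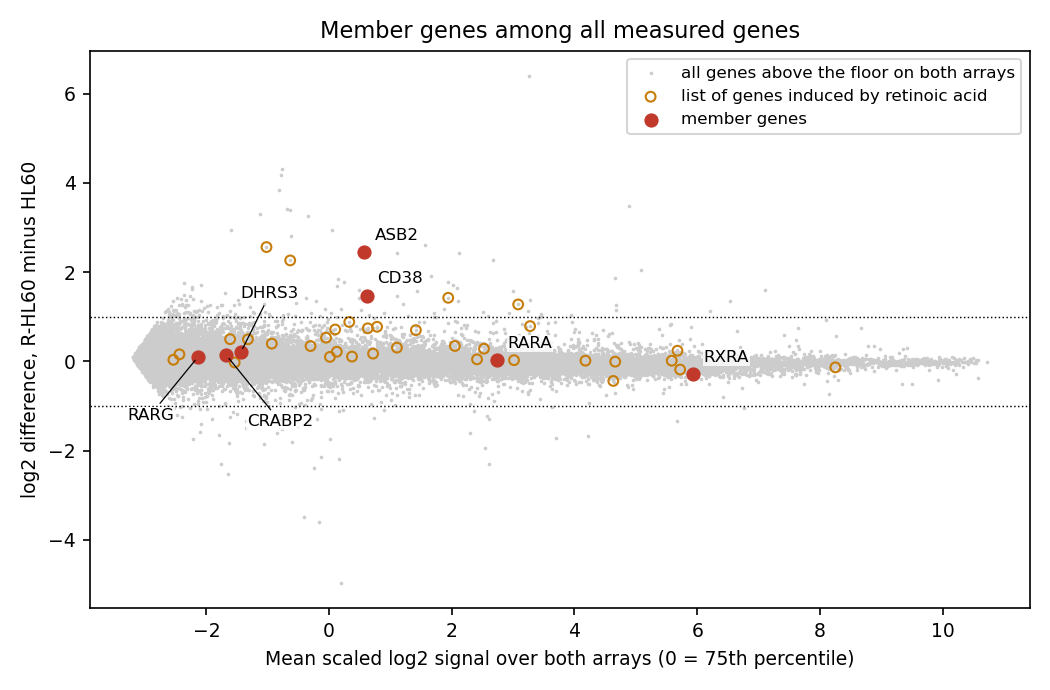
The log2 difference, R-HL60 minus HL60, against the mean scaled log2 signal of all 21838 genes above the floor on both arrays (grey), with the 7 member genes measured on both (red) and the list of genes induced by retinoic acid (open orange); dotted lines mark 2-fold. ASB2 at 2.45 and CD38 at 1.46 lie above the cloud, and the other 5 members lie inside it.

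The genes with signals most like those of these members were found by the straight-line distance between scaled log2 signals over the 2 arrays, among 14540 named genes measured on both. Nearest to CD38 was PTX3, a secreted pentraxin, with 735 in R-HL60 and 269 in HL60, at a distance of 0.02. SERPINA1, which encodes the protease inhibitor alpha-1 antitrypsin, followed at 0.19, and SLC8A1, a sodium-calcium exchanger, at 0.20. Nearest to ASB2 was CD48, a surface receptor of the SLAM family, with 1000.3 in R-HL60 and 188 in HL60, at a distance of 0.03. The next genes were further away, SLC8A1 at 0.61 and the long non-coding RNA gene TTN-AS1 at 0.68. With 2 arrays, a like pattern means no more than a like pair of signals.

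Wider lists of the pathway were then examined, 136 genes in 6 lists, of which 94 passed the floor on at least 1 array. Of these, 4 were past 2-fold higher in R-HL60, or 4.26% against 0.786% of all genes, and 0 were past 2-fold lower, against 0.297%. All 4 belonged to the list of other genes induced by retinoic acid, mostly in myeloid cells. The lists were chosen with earlier results of these arrays known, so nothing is read from these shares. Several genes of that list, ICAM1, CCL2 and CYBB among them, also answer to other signals such as NF-kB or interferon.

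Of the 46 genes induced by retinoic acid, 35 were above the floor on at least 1 array, 29 with a difference above 0 and 6 below, where 43.7% of all genes were above 0, and the list median was 0.28 against -0.03 over all genes. ICAM1, an adhesion molecule for leukocytes, had a signal of 352 in R-HL60 and 59.3 in HL60, 5.90-fold higher. CYBB, the catalytic subunit of the phagocyte NADPH oxidase and a marker of granulocytic maturation, had 415 in R-HL60 and 86.0 in HL60, 4.79-fold higher. ICAM1 and CYBB were dim in HL60. With 50 units added, their log2 differences fell from 2.56 to 1.87 for ICAM1 and from 2.26 to 1.77 for CYBB. The probe-to-probe SD at their brightness was 0.23 for ICAM1 and 0.17 for CYBB. S100A9, a calcium-binding protein abundant in neutrophils, had 1849 in R-HL60 and 685 in HL60, 2.68-fold higher. The chemokine gene CCL2 had 3869 in R-HL60 and 1589 in HL60, 2.42-fold higher. Just under the threshold were BTG2, an antiproliferative gene, with a log2 difference of 0.88, and S100A8, the partner of S100A9, with 0.79. SPINT1, a serine protease inhibitor, was at 0.77. Differences of other oxidase subunit genes were 0.74 for NCF1, whose near-identical pseudogenes its probes may not separate, and 0.02 for NCF4.

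The further genes named here from the list, several of them known from the granulocytic response, were not past 2-fold. CEBPE, a transcription factor of granulocyte maturation and a direct target of the receptors, had 85438 in R-HL60 and 93230 in HL60, a log2 difference of -0.13. The integrin gene ITGAM, which encodes the surface marker CD11b, had 177 in R-HL60 and 133 in HL60, a log2 difference of 0.40. PRAM1, an adaptor gene first described as induced by retinoic acid in promyelocytic leukaemia, was at -0.18, the receptor gene CSF3R at 0.05 and the kinase gene LYN at -0.01. The lowest of the list was ID2, an inhibitor of transcription factors, at -0.44 on its brighter probe and -0.31 on its other. The ligand gene TNFSF10 was at 0.70 on its brightest probe, with its 3 probes running between 0.16 and 0.70.

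**Figure D4:**
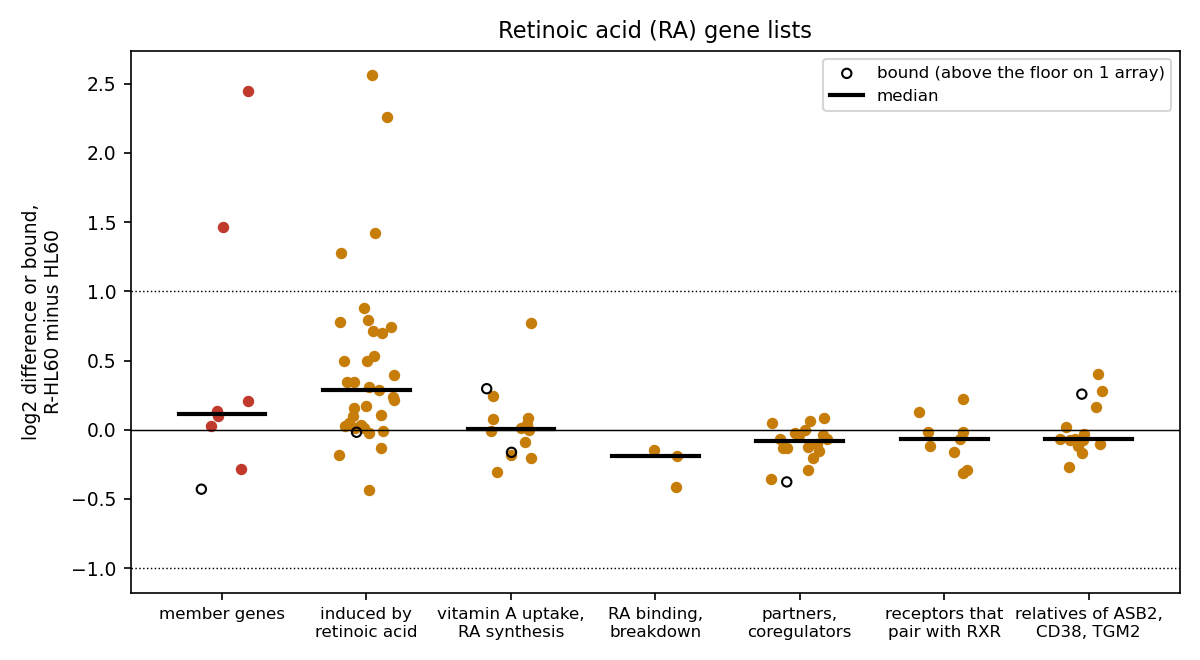
The log2 difference or bound, R-HL60 minus HL60, of each gene above the floor on at least 1 array, by list, with the medians as bars and bounds as open circles; dotted lines mark 2-fold. The list of induced genes has a median of 0.28 and 4 genes past 2-fold. The other 5 lists have medians between -0.19 and 0.01 and no gene past 2-fold. Over all genes 0.786% were past 2-fold higher and 0.297% lower.

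No gene of the lists that make, bind and break down retinoic acid was past 2-fold. Over all genes the shares were 0.786% higher and 0.297% lower. In lists this short a count of 0 is near those shares, and nothing is read from it. Of 29 genes of vitamin A uptake, storage and retinoic acid synthesis, 15 were above the floor on at least 1 array, 0 were past 2-fold and the median was 0.01. RDH10, which oxidises retinol in the first step of synthesis, had 960 in R-HL60 and 1177 in HL60, a log2 difference of -0.30. The other genes named by the same rule were BCO1, which cleaves beta-carotene, at 0.77 with dim signals of 59.0 in R-HL60 and 34.4 in HL60, the aldehyde dehydrogenase ALDH1A1 at 0.24, RDH13 at -0.21, BCO2 at -0.19 and RDH5 at 0.09. Of 6 genes of binding and breakdown 3 were above the floor, FABP5, a fatty acid carrier that also binds retinoic acid, at -0.14, CRABP1 at -0.19 and CYP3A4 at -0.41. The enzyme genes CYP26B1 and CYP26C1 were below the floor on both arrays.

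The partners and coregulators of the receptors all had a signal past the floor in 1 line or both, 18 of 18. Their differences were above 0 for 3 and below for 15, with a median of -0.08. Over all genes 56.3% of the differences were below 0 and the median was -0.03. These shares were not matched for brightness, and in the brightest bin the median signal was 9231 in R-HL60 and 9654 in HL60. None was past 2-fold, beside 0.786% higher and 0.297% lower over all genes, and nothing is read from that count. The lowest measured on both arrays was the acetyltransferase CREBBP, with 1015 in R-HL60 and 1290 in HL60, a log2 difference of -0.36. The corepressor NCOR1 was at -0.29 on its brightest probe and its 3 probes ran up to -0.05. The coactivator NCOA1 was at -0.20, RXRG at -0.15 and MED1 at -0.14, while RXRB was at -0.03. NRIP1 was at -0.13 on its brighter probe and 0.13 on its other, and has no direction. Of 13 other nuclear receptors that pair with RXR, 9 were measured, with a median of -0.07. Of these 0 were past 2-fold, again near the shares over all genes. PPARA was lowest at -0.32, PPARG was at -0.29, NR1I3 at -0.16 and the vitamin D receptor VDR at -0.12. The brighter probes of NR4A2 and PPARD were at 0.22 and 0.13 and their other probes at -0.15 and -0.06, so neither has a direction.

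The relatives of the response members were examined as well. The 24 genes were the other ASB family genes, the CD38 paralogue BST1 and the other transglutaminase genes. Of these, 14 were above the floor on at least 1 array, with 0 past 2-fold and a median of -0.07. Over all genes 0.786% were past 2-fold higher and 0.297% lower, and nothing is read from the count of 0. ASB16 had 189 in R-HL60 and 142 in HL60, a log2 difference of 0.40 and the highest of the list. BST1, the neighbour and paralogue of CD38 that also acts on NAD, had 502 in R-HL60 and 410 in HL60, a log2 difference of 0.28. TGM5 was at -0.27, ASB3 at -0.17, TGM1 at 0.16 and ASB18 at -0.12. The differences of 1.46 for CD38 and 2.45 for ASB2 lay above those of every relative measured here. As CD38 and ASB2 were known to stand out on these arrays when the members were chosen, nothing is read from this order.

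Genes with a DR5 in a promoter window, a set chosen by sequence alone, were set beside the members. There were 29 such genes, 17 had a probe and 9 passed the floor on at least 1 array. Among the 9 were the member CYP26A1, at its bound, and COL24A1, which had no value. None was past 2-fold in either direction, beside 0.786% higher and 0.297% lower over all genes. For so few genes that count is near those shares, and nothing is read from it. The median was -0.09 against -0.03 over all genes. Outside the members, ENOX1-AS2, a long non-coding RNA gene, was highest at 0.85, with 149 in R-HL60 and 82.0 in HL60, and ATXN1L was lowest at -0.14. Genes with a DR2 or a DR1 had medians of 0.10 over 6 and -0.03 over 25 genes above the floor. Of these 0 were past 2-fold, from which nothing is read either. These windows cover a small stretch around the start and leave out elements elsewhere, such as the one known in the first intron of CD38.

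**Figure D5:**
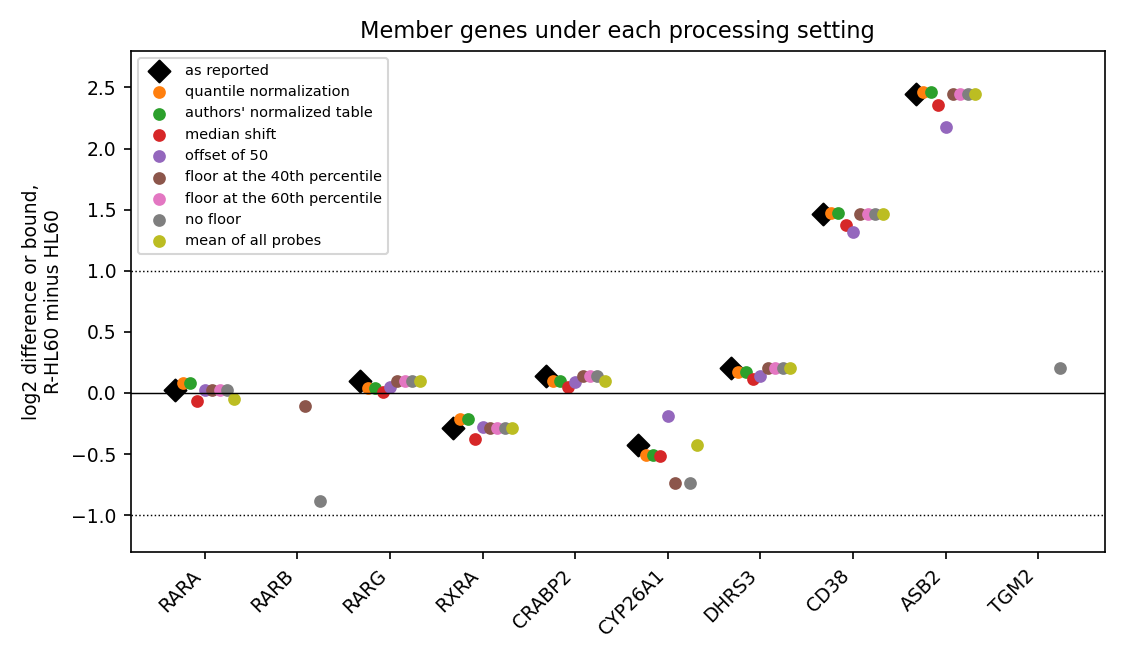
The log2 difference or bound, R-HL60 minus HL60, of each member gene under the reported setting (black diamonds) and 8 other settings (coloured points); dotted lines mark 2-fold. ASB2 lies between 2.17 and 2.47 and CD38 between 1.31 and 1.48 throughout, while RARB and TGM2 have values only where the floor is lowered or left out.

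Across the processing settings ASB2 ran from 2.17 to 2.47 and CD38 from 1.31 to 1.48 on the log2 scale, so both were past 2-fold in each. RARA ran from -0.06 to 0.08 and changed sign, RXRA from -0.37 to -0.21, RARG from 0.01 to 0.10, CRABP2 from 0.05 to 0.14 and DHRS3 from 0.11 to 0.20. CYP26A1 ran from -0.74 to -0.19 in the settings that gave it a value; with the floor at percentile 60 it was not above the floor on either array and its bound was lost.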

How the data were processed

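Total RNA of R-HL60 and HL60, 1 array each, was labelled with Cy3 and read as 1 colour, per the labels' protocols. The deposited files hold 1 linear intensity per probe with a gene name, made with Agilent Feature Extraction 10.7.3.1 per the submitters' processing notes; the scanner column and the background treatment are not given in the sources used here. A deposited table of normalized intensities from the authors, in which the value at each rank was never more than 1.06% from the average of the 2 raw signals of that rank, served as an alternative. Probe identifiers, background values and flags were not used here.

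The main values were log2 signals minus the 75th percentile of the array, with the array's median as the floor and the probe of highest mean for a gene. A bound used the floor in place of the dim signal, or that signal where it was higher on the scaled axis. Older symbols of 1 gene were updated through a RefSeq gene table (1567 of 43317 names; 21081 were current, 57 ambiguous and 20612 unmatched). Since each line had 1 array, the comparison has no test and no p-value, and the number of arrays limits the precision. The probe-to-probe SD was pooled within 4723 genes with several probes above the floor, in 5 brightness bins. Members, lists and the naming rule were chosen with earlier results of these data known. The rule took all members, every gene past 2-fold in a list and up to 6 with the largest differences; further list genes were named with their values in view. A few list genes are not reported here by name. The alternatives tried were the authors' table, quantile normalization, a median shift, an offset of 50, a floor at percentile 40 or 60 or no floor, the mean of all probes, and thresholds of 1.5-fold and 3-fold. The steps were tested on simulated data. Changes were planted only in genes brighter in HL60 than CD38 and ASB2, so the recovery of changes in dim signals and of bounds was not tested. Promoter sequences came from RefSeq. Python 3.11.15, numpy 2.4.6, pandas 2.3.3 and matplotlib 3.10.9 were used.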

Additional observations from a re-analysis of the deposited data

How the results depend on the processing

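The count of 2 members at least 2-fold higher held under the other scalings, the offset, the floors and the mean of all probes, was 2 at 1.5-fold and 1 at 3-fold, where ASB2 alone passed. The count of 0 members at least 2-fold lower was 0 in every setting. Of the wider lists, the count of 4 genes past 2-fold higher was 5 with the floor at percentile 40 and 8 with no floor. It was 11 at 1.5-fold, beside 3.53% of all genes, and 2 at 3-fold, beside 0.191%. The count of 0 lower was 3 with no floor, a setting that lets signals near the bottom of the scale in. No share over all genes was taken with no floor. The median of the members ran from 0.03 to 0.14, that of the induced genes from 0.17 to 0.33. Under the median shift the median of all genes was -0.12, and values of single genes there are to be read against it. CYP26A1 had no value with the floor at percentile 60. RARB and TGM2 gained values only through a lower floor or none. No paired analysis was possible because each line has 1 array. Without replicate arrays, detection flags or probe identifiers, signals near the floor cannot be told from background, and no difference has an error between cultures.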
